A study of Rattus norvegicus with 6 samples.

Results

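The miR-125 family, which takes in miR-351, and the miR-99/100 family were followed in plasma exosomes of rats as 6 mature miRNAs, rno-miR-125a-5p, rno-miR-125b-5p and rno-miR-351-5p in the first family and rno-miR-99a-5p, rno-miR-99b-5p and rno-miR-100-5p in the second. They were taken by name, as the 5p products of these families listed in the count table, by a rule that uses no measured value but was written with earlier results of these data known. They were 6 of 763 rat miRNAs in the table, of which 598 had at least 1 count in some library and 404 passed the filter on low counts. All 6 passed it.

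The study compared the late phase after remote ischemic pre-conditioning (RIPC) with a control state without RIPC, in exosomes of plasma. In RIPC, brief bouts of limb ischemia are given at a distance from the heart. Small RNA of the exosomes was sequenced in 3 libraries per group. Male Sprague-Dawley rats aged 7–8 weeks, as the study's methods give them, provided the blood. In the RIPC group (R-exo), both hind limbs went through 4 cycles of 5 min of ischemia and 5 min of reperfusion under anesthesia, and the control group (C-exo) had no RIPC. Rats of both groups were bled from the abdominal aorta 48 h later, and exosomes were pelleted from plasma by differential centrifugation. No genetic change was named for either group. The paper names a control protocol without describing it, so whether control rats were anesthetized at that time is not stated. The labels do not say whether a library came from 1 rat or from several, so p-values measure only the spread between these libraries, which may be partly technical. In plasma, a lower level of a miRNA cannot be told apart from fewer vesicles of the cells that release it.

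A miRNA guides a silencing complex to messenger RNAs mainly by its seed, the bases from position 2 to 8 counted from the 5′ end, so miRNAs with 1 seed form a family with largely shared targets. The miR-125 family is the mammalian kin of the worm timing miRNA lin-4, and the miR-99/100 family is known for sites in the growth kinase gene Mtor. Members of both families are made together with let-7, another developmental timing miRNA, from polycistrons, which are single transcripts holding several stem-loops, while miR-351 is made with miR-322 and miR-503. Each stem-loop can release a product from either arm, named 5p and 3p.

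The mature sequences are shown because they define the families, and the capitals mark the seed. They are RefSeq sequences of the rat build GRCr8, in which 5 of the 6 names had an entry. The name without an entry was miR-99a-5p.
rno-miR-125a-5p: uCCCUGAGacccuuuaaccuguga
rno-miR-125b-5p: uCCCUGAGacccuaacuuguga
rno-miR-351-5p: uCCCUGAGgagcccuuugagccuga
rno-miR-99b-5p: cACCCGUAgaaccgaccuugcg
rno-miR-100-5p: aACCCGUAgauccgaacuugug
rno-let-7e-5p: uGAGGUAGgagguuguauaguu

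Among 693 mature rat miRNA names searched, the seed CCCUGAG was found in 3, all members of the miR-125 family, and ACCCGUA in 2, miR-99b-5p and miR-100-5p. miR-125a-5p and miR-125b-5p share their first 13 bases, and miR-351-5p shares the first 8 with each of them. With positions counted from 1 at the 5′ end and the miR-99b-5p base given first, miR-99b-5p and miR-100-5p differ by C1A, A11U, C16A and C21U. Without an entry, miR-99a-5p was not in the search and could not be compared with either. How reads that match more than one name were assigned is not given in the sources used here, so the split among near-identical members is uncertain.

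In GRCr8, miR-99b-5p lies at chr1:67350070-67350091 on the plus strand, followed by let-7e-5p at chr1:67350243-67350264 and miR-125a-5p at chr1:67350689-67350712, all within the span of the gene Spaca6. miR-100-5p lies at chr8:50798307-50798328 on the plus strand, within the span of Mir100hgl together with Mirlet7a-2 and Mir125b1. The entry for miR-125b-5p is at chr11:29732588-29732609 on the plus strand, in the stem-loop Mir125b2, which shares the span of LOC103693508 with Mir99a and Mirlet7c1. miR-351-5p lies at chrX:137725157-137725181 on the minus strand, and Mir351, Mir503 and Mir322 are consecutive within LOC102550366. The submitters' processing notes name the earlier build rn6, and the count table carries no coordinates. miR-125b-5p is made from both Mir125b1 and Mir125b2, so its count cannot be assigned to 1 of these polycistrons.

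The libraries held 5484209 to 7531737 counts in C-exo and 6982273 to 7380752 in R-exo. A count of 3, taken as the floor, corresponded to 0.369 to 0.672 CPM (counts scaled to a common library size, with TMM factors from the trimmed mean of the log ratios between libraries). Members had at least 1420 counts in every library, so counting error was at most 2.65% of a value. It covers counting only, since the fragments were amplified by PCR and the sources used here mention no molecular identifiers. C-exo replicate 3 stood apart from its group. Its Spearman correlation across miRNAs, which are not independent replicates, was 0.965 to 0.983 with the R-exo libraries and 0.902 and 0.931 with the other C-exo libraries. Values without it are given beside the members and the partners described below. It was singled out in these same data for its likeness to R-exo, so leaving it out favours a larger difference between the groups. With it left out, 132 of 422 tested miRNAs had an adjusted p under 0.05 by edgeR's quasi-likelihood test, against 0 with all libraries. Adjusted p-values without it are therefore no independent evidence.

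The miR-125 family was at lower levels in R-exo. All 3 members had lower levels in every R-exo library than in every C-exo library, and 2 of them, miR-125b-5p and miR-351-5p, met a rule with the study's limits, over 2-fold and p under 0.05, here applied to the p before adjustment. The miR-99/100 family did not move as 1 group. Its most abundant member, miR-99a-5p, was lower in R-exo without overlap but missed the rule, miR-99b-5p and miR-100-5p overlapped between the groups, and no member passed. By edgeR's quasi-likelihood test, 30 of 404 tested miRNAs, or 7.43%, passed the rule in the lower direction, and 38, or 9.41%, in either direction. This balance depended on the scaling, since 15 of 33 called miRNAs were lower with library size only. With 1 library left out, the number called lower ranged from 7, without C-exo replicate 1, to 82, without C-exo replicate 3. At an adjusted p under 0.05 the test called no miRNA, 0.0% of those tested, against 38 at an unadjusted p under 0.05, and DESeq2, edgeR's exact test and limma-voom also called none. The smallest adjusted p over all tested miRNAs was 0.461, so each call below rests on the unadjusted rule.

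**Figure D1:**
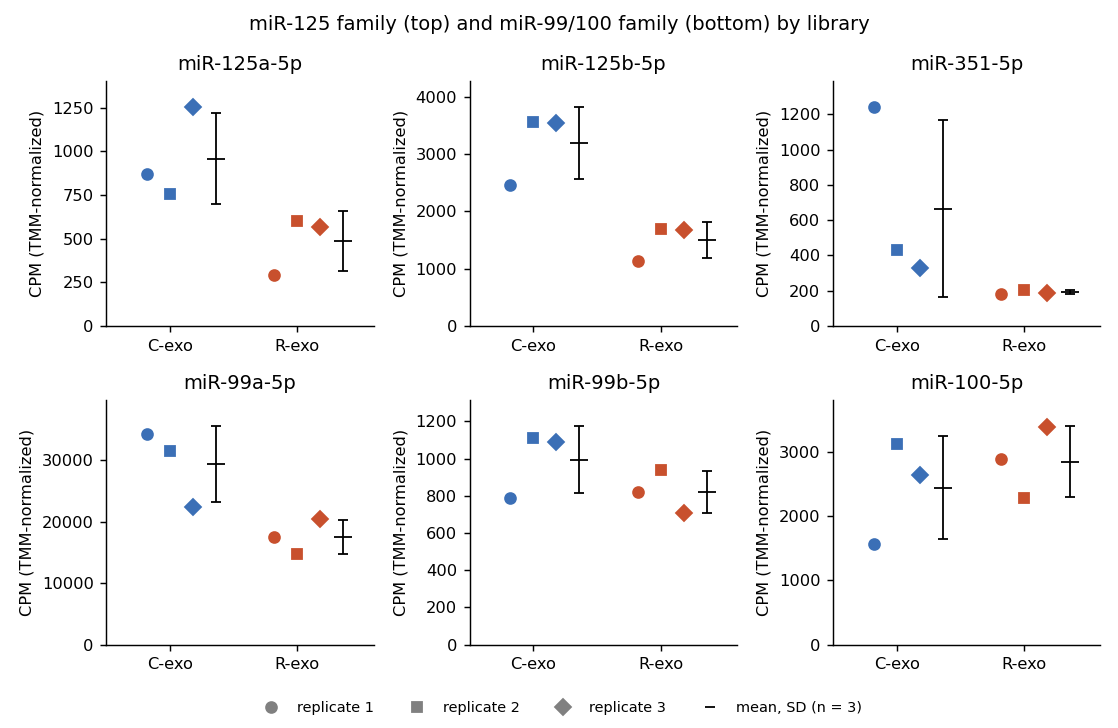
Level of each member in CPM (TMM-normalized, linear axes starting at 0) in the 3 C-exo (blue) and 3 R-exo (red) libraries, with the group mean and SD beside the points. The 3 members of the miR-125 family and miR-99a-5p have every R-exo point below every C-exo point, and miR-99b-5p and miR-100-5p do not.

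miR-351-5p, found in rodents, was at 1239.5, 431 and 327 CPM in C-exo replicates 1, 2 and 3 and at 184, 206 and 187 CPM in R-exo replicates 1, 2 and 3. The 3 R-exo libraries were close together, while C-exo replicate 1 was far above the other controls, and the groups did not overlap. The means were 666 ± 500 CPM (SD, n = 3) in C-exo and 192 ± 11.8 CPM (SD, n = 3) in R-exo. The log2 fold change was -1.79 (SE 0.566), with an unadjusted p of 0.0108 and an adjusted p = 0.461 in edgeR's quasi-likelihood test, adjusted after Benjamini and Hochberg. Without C-exo replicate 1 the log2 fold change shrank to -1.06 and the rule was still met. Without C-exo replicate 3 it was -2.11, with an adjusted p = 0.00733 in the same test. In that fit 132 of 422 tested miRNAs were under 0.05.

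miR-125b-5p, the most abundant member of its family and abundant in nervous and muscle tissue, was at 2463, 3552 and 3551 CPM in C-exo and at 1133, 1689 and 1668 CPM in R-exo. The lowest control, replicate 1, was above the highest R-exo library. The means were 3189 ± 629 CPM (SD, n = 3) and 1497 ± 315 CPM (SD, n = 3). This gave a log2 fold change of -1.09 (SE 0.421), with an unadjusted p of 0.0281 and an adjusted p = 0.461 by edgeR's quasi-likelihood test. Only 1 of the 6 fits that each left out 1 library still met the rule, the one without C-exo replicate 1 (-1.31). Each of the other 5 libraries thus ended the call when left out. Without C-exo replicate 3 the log2 fold change was -0.995, just short of the fold limit, with an adjusted p = 0.0659. The range over all 6 fits was -1.31 to -0.88. With library size only, the call was also lost, at -0.98 with an unadjusted p of 0.0604.

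miR-125a-5p, made from the polycistron on chromosome 1, was at 871, 754 and 1253 CPM in C-exo and at 291, 603 and 567 CPM in R-exo. C-exo replicate 3 was the highest library and R-exo replicate 1 the lowest, and the groups did not overlap. The means were 959 ± 261 CPM (SD, n = 3) and 487 ± 171 CPM (SD, n = 3). The log2 fold change of -0.98 (SE 0.466) was just short of the fold limit, with an unadjusted p of 0.0637 and an adjusted p = 0.473 by edgeR's quasi-likelihood test. Of 11 other ways of processing, 2 called it. Without C-exo replicate 3 the log2 fold change was -0.73, and without R-exo replicate 1 it was -0.64.

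miR-99a-5p was by far the most abundant member, ranking between 11 and 22 among all miRNAs of a library by CPM. It was at 34334, 31441 and 22460 CPM in C-exo and at 17449, 14739.6 and 20354 CPM in R-exo. The groups did not overlap, but C-exo replicate 3 lay closer to the highest R-exo library than to the other controls. As a share of library counts, with no TMM scaling, C-exo replicate 3 (2.096%) and R-exo replicate 3 (2.09%) were almost equal. The means were 29412 ± 6191 CPM (SD, n = 3) and 17514 ± 2808 CPM (SD, n = 3). The fit gave a log2 fold change of -0.75 (SE 0.384), with an unadjusted p of 0.0814 and an adjusted p = 0.473 by edgeR's quasi-likelihood test, and no fit called it. Without C-exo replicate 3 it was -0.90, with an adjusted p = 0.0541.

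miR-99b-5p, from the same polycistron as miR-125a-5p, was at 786, 1110.2 and 1089 CPM in C-exo and at 822, 936 and 709 CPM in R-exo. R-exo replicates 1 and 2 fell among the control values. The log2 fold change was -0.28 (SE 0.407), with an adjusted p = 0.761 by edgeR's quasi-likelihood test, and -0.20 without C-exo replicate 3.

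miR-100-5p was at 1571, 3129 and 2637 CPM in C-exo and at 2887, 2277 and 3388 CPM in R-exo. The lowest and the next-to-highest libraries were both controls, so the groups overlapped widely. Its log2 fold change was 0.22 (SE 0.439), with an adjusted p = 0.818 by edgeR's quasi-likelihood test, and its sign rested on C-exo replicate 1, without which it was -0.082. It was 0.29 without C-exo replicate 3.

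Counted as a list, 5 of the 6 members had a log2 fold change below 0, and the median was -0.86, beside 207 of 404 and a median of -0.05 over all tested miRNAs. Lower without overlap in R-exo were 4 of the 6 members, against 32 of 404 tested miRNAs, or 7.92%. The miR-125 family had a median of -1.09 and the miR-99/100 family -0.28. Scaling by library size only moved the median of all tested miRNAs from -0.05 to 0.10, and taken relative to these medians the members changed little between the scalings, for example from -1.74 to -1.66 for miR-351-5p, from -1.05 to -1.08 for miR-125b-5p and from 0.27 to 0.23 for miR-100-5p. Without C-exo replicate 3, 1 of the 6 members, miR-351-5p, was called, while 182 of 422 tested miRNAs, or 43.1%, were called in that fit.

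**Figure D2:**
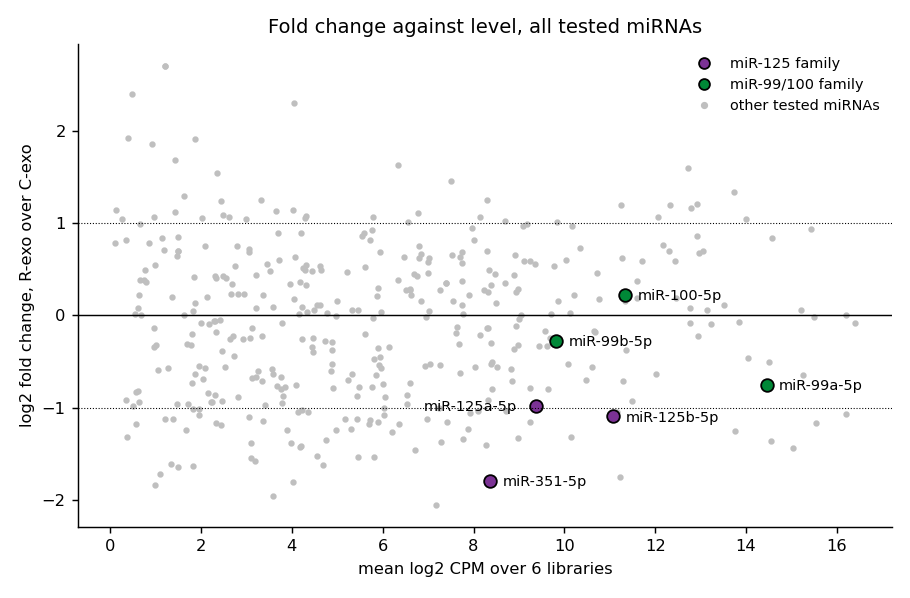
Log2 fold change of R-exo over C-exo against the mean log2 CPM over the 6 libraries for all 404 tested miRNAs (grey), with the miR-125 family in purple and the miR-99/100 family in green, and dotted lines at the fold limit of 2. Below 0 lie 5 of the 6 members, with miR-351-5p the lowest of them at -1.79 and miR-100-5p alone above 0 at 0.22.

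The members with a RefSeq entry are 22 to 25 bases long, and the order of these 5 by mean CPM was the same per base. Reads amplified by PCR are not molecules and the split of reads among near-identical members is uncertain, so the order is that of the reads. In C-exo, miR-99a-5p stood above all others, miR-125b-5p and miR-100-5p followed with overlapping ranges, and miR-99b-5p, miR-125a-5p and miR-351-5p came last, each overlapping its neighbour. In R-exo the order by mean CPM was miR-99a-5p, miR-100-5p, miR-125b-5p, miR-99b-5p, miR-125a-5p and miR-351-5p, and no neighbours overlapped. miR-125b-5p had the higher mean of the pair in C-exo and miR-100-5p in R-exo.

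Summed by seed, the miR-125 family was at 4574, 4737 and 5131 CPM in C-exo and at 1608, 2497 and 2422 CPM in R-exo. The controls lay within a narrow band, well above all R-exo libraries. C-exo replicate 1 was the highest control for miR-351-5p and the lowest for miR-125b-5p. The means were 4814 ± 287 CPM (SD, n = 3) and 2176 ± 493 CPM (SD, n = 3), a ratio of 0.452. The miR-99/100 family summed to 36690.2, 35680.2 and 26187 CPM in C-exo and to 21158, 17953 and 24452 CPM in R-exo, a ratio of means of 0.645. As a share of library counts, the miR-125 family still did not overlap, with 0.372% to 0.527% in C-exo and 0.186% to 0.249% in R-exo. The miR-99/100 family did overlap by that measure, with 2.44% to 3.97% in C-exo and 1.79% to 2.51% in R-exo. Compared directly, the miR-99/100 sum divided by the miR-125 sum was 8.02, 7.53 and 5.10 in C-exo and 13.2, 7.19 and 10.1 in R-exo, which overlapped. With C-exo replicate 3 left out, the ratio of means of R-exo to C-exo was 0.467 for the miR-125 family and 0.586 for the miR-99/100 family.

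Within the miR-99/100 family, miR-99a-5p made up 93.6%, 88.1% and 85.8% of the summed CPM in C-exo replicates 1 to 3, against 82.5%, 82.1% and 83.2% in R-exo. The share of miR-100-5p was 4.28%, 8.77% and 10.1% in C-exo and 13.6%, 12.7% and 13.9% in R-exo. Neither share overlapped between the groups, while no single member of the family passed the rule. Since miR-99b-5p made up only 2.14% to 5.22%, the 2 shares largely mirror each other and are close to 1 observation. Over all pairs of tested miRNAs, 13.8% gave a ratio without overlap, although a share is not such a ratio. The uncertain split of reads among near-identical members applies to these shares as well. Within the miR-125 family, the shares of all 3 members overlapped, and miR-125b-5p was the largest part in every library, from 53.9% to 75.0%.

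**Figure D3:**
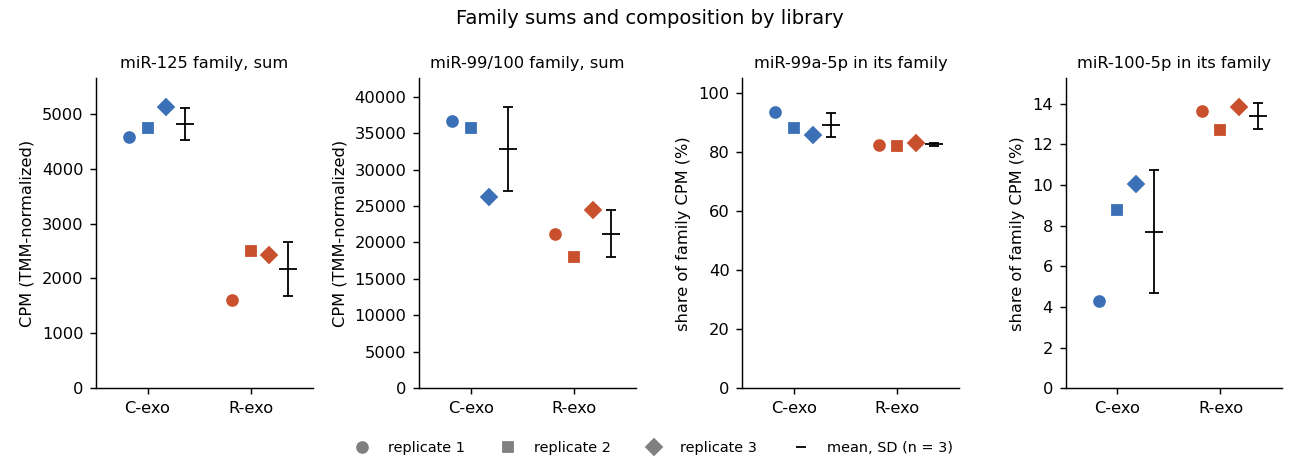
From left to right, the summed CPM (TMM-normalized) of each family and the shares of miR-99a-5p and miR-100-5p in the summed CPM of their family, in percent, for the 3 C-exo (blue) and 3 R-exo (red) libraries with mean and SD. The miR-125 sum separates widely, at 4574 to 5131 against 1608 to 2497 CPM, and miR-100-5p takes 12.7% to 13.9% of its family in R-exo against 4.28% to 10.1% in C-exo.

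The opposite arms give a separate readout of the same stem-loops. Of 7 opposite arms in the table, 5 were tested, all 5 had a log2 fold change below 0, and 1 passed the rule. Over all tested miRNAs, 207 of 404 were below 0 and 30, or 7.43%, passed the rule in the lower direction. Their median was -0.57. The stem-loop of Mir351 is shown because both of its arms were called, with the 5p and 3p products in capitals (RefSeq, GRCr8, chrX:137725116-137725196, minus strand).
Mir351: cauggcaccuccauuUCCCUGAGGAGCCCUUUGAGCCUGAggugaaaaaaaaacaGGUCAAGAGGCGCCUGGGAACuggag

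miR-351-3p was at 347, 127 and 95.0 CPM in C-exo and at 47.5, 90.2 and 69.7 CPM in R-exo. As for its 5p partner, C-exo replicate 1 was far above the rest and the groups did not overlap, although C-exo replicate 3 was only slightly above R-exo replicate 2. As a share of library counts these 2 libraries changed places, at 0.00887% and 0.00899%, and the groups overlapped. The log2 fold change was -1.46 (SE 0.576), with an unadjusted p of 0.031 and an adjusted p = 0.461 by edgeR's quasi-likelihood test, and the call was lost without C-exo replicate 1 (-0.77), R-exo replicate 1 (-1.14) or R-exo replicate 3 (-1.52). With C-exo replicate 3 left out it was -1.77, with an adjusted p = 0.016 by the same test. That fit had 132 of 422 tested miRNAs under 0.05. The counts of the 5p arm divided by those of the 3p arm were 3.57, 3.39 and 3.44 in C-exo and 3.87, 2.28 and 2.69 in R-exo.

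miR-125a-3p was at 332, 234 and 111 CPM in C-exo and at 128, 99.6 and 109.9 CPM in R-exo. C-exo replicate 3 fell among the R-exo libraries, although it had the highest level of miR-125a-5p. The fitted ratio of R-exo to C-exo was 0.499, with an unadjusted p of 0.0692 by edgeR's quasi-likelihood test. Without C-exo replicate 3 the rule was met, at a log2 fold change of -1.32 with an adjusted p = 0.0259 by the same test. In that fit 132 of 422 tested miRNAs were under 0.05. The 5p to 3p ratio of Mir125a was 11.3 in C-exo replicate 3 and 2.27 to 6.05 in the other 5.

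The 3p arms of Mir125b1 and Mir125b2 tell the polycistrons of miR-125b-5p apart. miR-125b-2-3p was at 503.2, 454 and 273 CPM in C-exo and at 316, 275 and 266 CPM in R-exo, with a log2 fold change of -0.52 (SE 0.423). miR-125b-1-3p was at 189.8, 149 and 111 CPM in C-exo and at 93.6, 102 and 111 CPM in R-exo, with a log2 fold change of -0.55 (SE 0.412). Without C-exo replicate 3 the log2 fold changes were -0.73 and -0.72. Both overlapped between the groups, neither was called, and the ratio of the former to the latter stayed between 2.39 and 3.38 in all 6 libraries. miR-99b-3p had a log2 fold change of -0.57 (SE 0.430), and -0.79 with C-exo replicate 3 left out, with no call in either fit. miR-99a-3p had 0 to 13 counts and miR-100-3p 1 to 9 counts in a library, and neither was tested.

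The list of partners held 15 other miRNA names, of which 14 were tested. But let-7c-2-3p and let-7a-1-3p have the same sequence and the same count in every library, so they are 1 measurement under 2 names, and both come from stem-loops on chromosomes 7 and 17, outside the polycistrons of the members. Of the other 12, 8 had a log2 fold change above 0 and 4 below, none passed the rule, and the median was 0.083. Among 11 other ways of processing all libraries, 8 called let-7c-5p higher and 2 called let-7a-5p higher. miR-450a-5p, of the X-linked group, was the single partner without overlap in CPM, lower in R-exo with a log2 fold change of -0.79, and -0.97 without C-exo replicate 3. As a share of library counts it overlapped, and let-7e-5p and let-7c-5p were instead higher in every R-exo library than in every control. With C-exo replicate 3 left out, 10 of the 12 were above 0 and 4 were called higher, namely let-7c-5p, let-7a-5p, miR-322-5p and miR-503-5p. In that fit 100 of 422 tested miRNAs, or 23.7%, were called higher.

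let-7e-5p, which has a single stem-loop between those of miR-99b and miR-125a, was at 75.3, 109 and 136 CPM in C-exo and at 129, 144 and 203 CPM in R-exo. In CPM, only C-exo replicate 3 reached into the R-exo range. Its log2 fold change was 0.57 (SE 0.435), and 0.80 without that library, not called in either fit. let-7c-5p was at 4080.2, 2468 and 9017 CPM in C-exo and at 8447, 11044 and 15358 CPM in R-exo, a log2 fold change of 1.16 (SE 0.544), and it was called without C-exo replicate 3 (1.84) or R-exo replicate 1 (1.43). let-7a-5p was at 2217, 1336 and 9320.4 CPM in C-exo and at 4252, 10567 and 14826 CPM in R-exo, a log2 fold change of 1.20 (SE 0.755), and 2.49 without C-exo replicate 3. For both, C-exo replicate 3 was the highest control and lay among the R-exo libraries in CPM. let-7c-5p and let-7a-5p are also made from the stem-loops Mirlet7c2 and Mirlet7a1 on other chromosomes, so they do not measure the members' polycistrons alone.

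**Figure D4:**
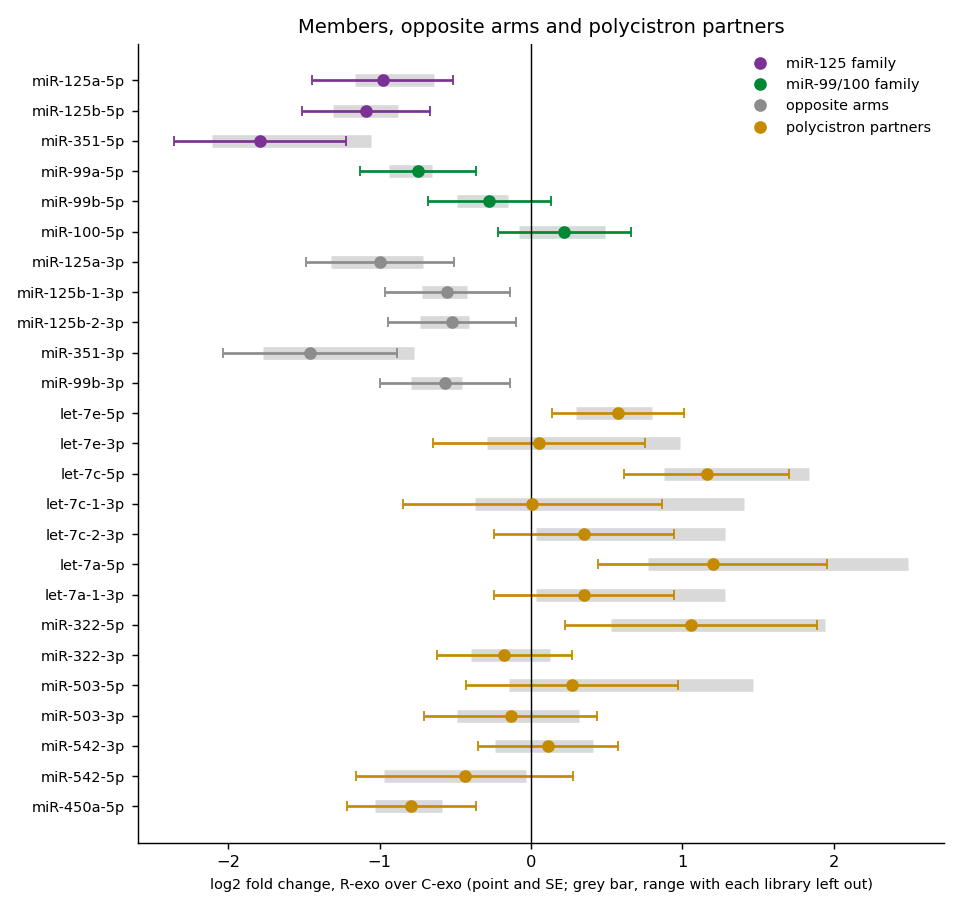
Log2 fold change of R-exo over C-exo for the members, the tested opposite arms and the tested polycistron partners, with points for the estimate, bars for its SE and grey bands for the range over fits that leave out 1 library. The 3 miR-125 members and all 5 opposite arms lie to the left of 0, and 10 of 14 partner names lie to the right, 2 of which, let-7c-2-3p and let-7a-1-3p, are 1 measurement.

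Ratios of 2 miRNAs of the same polycistron within a library do not depend on how libraries are scaled. Of 11 such ratios, 6 were higher in R-exo without overlap, 1 was lower without overlap and 4 overlapped. For comparison, 13.8% of all 81406 pairs of tested miRNAs gave a ratio without overlap. In the exact two-sided permutation test, 0.1 is the smallest p that 3 against 3 allows, and all 7 ratios without overlap had it, with an adjusted p = 0.157 over the 11. No ratio could therefore pass a threshold of 0.05. The ratios share members and are not independent of each other. No ratio changed sign when any 1 library was left out, and the ranges over these 6 fits are given below.

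In the polycistron on chromosome 1, the log2 ratio of let-7e-5p over miR-125a-5p was -3.53, -2.79 and -3.20 in C-exo and -1.18, -2.06 and -1.48 in R-exo. Every R-exo library had relatively more let-7e-5p, by a mean difference of 1.6 on the log2 scale. The ratio of let-7e-5p over miR-99b-5p was also higher in every R-exo library, by 0.85. The ratio of the 2 members, miR-125a-5p over miR-99b-5p, differed by -0.75 and overlapped, with p = 0.2 in the exact permutation test. Over the 6 fits these differences ranged from 1.405 to 1.85, from 0.56 (without R-exo replicate 3) to 1.01, and from -0.998 to -0.41 (without R-exo replicate 1).

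In the polycistron of miR-99a, the log2 ratio of let-7c-5p over miR-125b-5p was 0.73, -0.53 and 1.34 in C-exo and 2.90, 2.71 and 3.20 in R-exo, a difference of 2.42. The ratio over miR-99a-5p differed by 2.06, also without overlap. The members themselves, miR-125b-5p over miR-99a-5p, differed by -0.36 and overlapped, with p = 0.5 in the exact permutation test. Over the 6 fits the differences for the ratios to let-7c-5p ranged from 1.90 to 2.83 and from 1.57 to 2.75, in both cases lowest without C-exo replicate 2 and highest without C-exo replicate 3. That of the members ranged from -0.66 without C-exo replicate 1 to -0.086 without C-exo replicate 3, and was -0.17 without R-exo replicate 1 and -0.57 without R-exo replicate 2. The groups thus overlapped for the ratio of the 2 members and separated for both ratios to let-7c-5p.

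In the polycistron of miR-100, the log2 ratio of miR-125b-5p over miR-100-5p was 0.65, 0.18 and 0.43 in C-exo and -1.35, -0.43 and -1.02 in R-exo. Every control had more miR-125b-5p than miR-100-5p, every R-exo library had less, and the difference was -1.35. The ratio of let-7a-5p over miR-125b-5p differed by 2.63 without overlap, and that of let-7a-5p over miR-100-5p by 1.27 with overlap. The former ranged from 1.95 to 3.35 and the latter from 0.47 to 2.0, lowest without C-exo replicate 2 and highest without C-exo replicate 3. With any 1 library left out, the difference for miR-125b-5p over miR-100-5p ranged from -1.61 to -1.15.

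Of the X-linked group, miR-503-5p over miR-351-5p overlapped between the groups, with a difference of 2.10 on the log2 scale, which ranged from 1.14 without C-exo replicate 1 to 3.25 without C-exo replicate 3. miR-322-5p over miR-351-5p did not overlap, but miR-322-5p, the less abundant arm, had only 2 counts in C-exo replicate 1, and the difference was 1.52 without that library and 4.58 without C-exo replicate 3. miR-322-3p, at 1028 to 2284 CPM, had a log2 fold change of -0.18 (SE 0.446), which ranged from -0.39 to 0.12 with 1 library left out and was 0.046 without C-exo replicate 3.

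**Figure D5:**
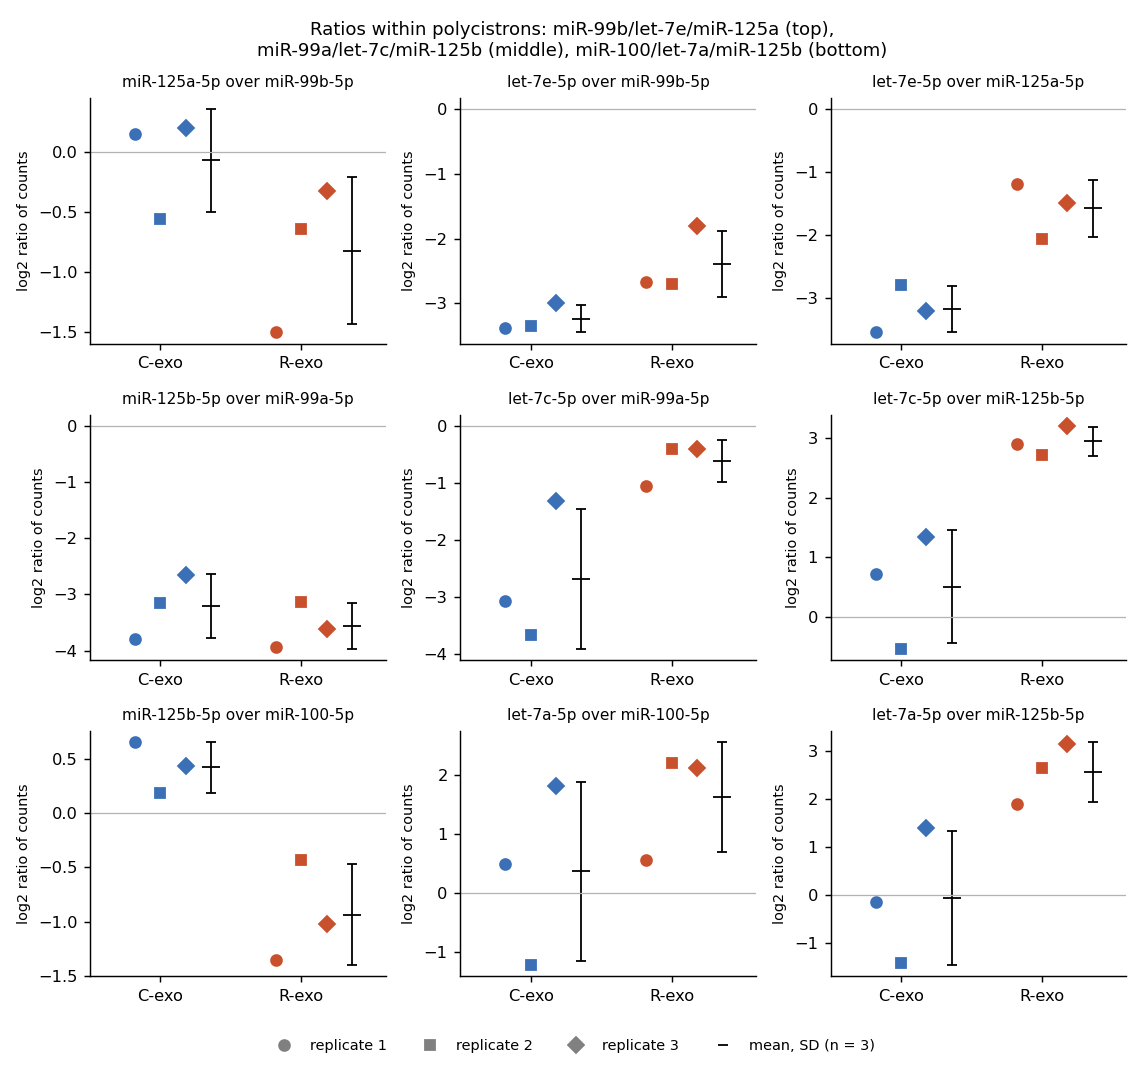
Log2 ratio of the counts of 2 miRNAs from the same polycistron in each C-exo (blue) and R-exo (red) library, with group mean and SD and a grey line at equal counts, for 9 of the 11 ratios, those over miR-351-5p not being drawn. The groups do not overlap in 6 of the 9 panels, among them miR-125b-5p over miR-100-5p, which is above 0 in all 3 controls and below 0 in all 3 R-exo libraries.

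Across the 6 libraries, and with the members themselves left out of the ranking, the miRNA whose log2 CPM followed miR-351-5p most closely was miR-328a-3p, with a Pearson r of 0.996, and for miR-99a-5p it was miR-1249, with 0.986. For miR-125b-5p and miR-125a-5p it was miR-3586-3p, with 0.969 and 0.929, a miRNA of only 2.83 to 3.56 CPM. miR-99b-5p was followed by miR-1843a-3p (0.9) and miR-100-5p by miR-148b-5p (0.895). The next in order were miR-504 (0.986) for miR-351-5p, miR-485-5p (0.981) for miR-99a-5p, miR-433-3p (0.812) for miR-125b-5p, miR-130b-5p (0.910) for miR-125a-5p, miR-542-5p (0.846) for miR-99b-5p and miR-335 (0.876) for miR-100-5p. Between members, r was 0.895 for miR-125a-5p with miR-125b-5p, 0.555 and 0.557 for the other pairs within the miR-125 family, and from -0.32 to 0.14 for the 3 pairs within the miR-99/100 family. Between families it was from -0.75, for miR-351-5p with miR-100-5p, to 0.868, for miR-351-5p with miR-99a-5p. These are descriptions over 6 points that share libraries, scaling and the 2 groups. By rank the order for miR-351-5p changed, with a Spearman correlation of 0.829 for miR-328a-3p and 1.0 for miR-504. Both miR-351-5p and miR-328a-3p were far highest in C-exo replicate 1, the latter at 9139 CPM against 3180 in C-exo replicate 2.

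Marker miRNAs of other sources of plasma RNA also varied. The summed level of the 4 red cell markers was 69279.5 to 198092 CPM in C-exo, highest in replicate 1 as for miR-351-5p, and 44539.6 to 74966 CPM in R-exo. miR-486 made up 90.8% to 98.8% of this sum, with a log2 fold change of -1.07, while the other markers had values above 0, at 0.37 for miR-451-5p, 1.07 for miR-144-3p and 1.63 for miR-144-5p. The last 2 of these were higher in R-exo without overlap and met the rule, with an adjusted p = 0.461 by edgeR's quasi-likelihood test, so the list did not move one way. The 2 endothelial markers, miR-126a-3p and miR-126a-5p, summed to 4723 to 16773 CPM in C-exo and 20587 to 30334 CPM in R-exo, without overlap. This sum was mostly miR-126a-3p, the miRNA the paper singled out, with a mean log2 CPM of 13.7 against 8.46 for miR-126a-5p. Their log2 fold changes were 1.34 and 0.45, with unadjusted p of 0.0291 and 0.576 by edgeR's quasi-likelihood test. The other lists overlapped between the groups, with 3553 to 21387 against 11449 to 26861 CPM for the 4 white cell and platelet markers, 2151 to 9821 against 1805 to 5972 CPM for the 7 striated muscle markers, 11012 to 55682 against 42834 to 88064 CPM for the 2 smooth muscle markers, and 79873 to 109258 against 76444 to 81310.1 CPM for the 3 liver markers. No listed marker was at 0 in all libraries. The part of these sources in the members' levels was not tested.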

How the data were processed

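Small RNA libraries of plasma exosomes were sequenced by the study, 3 from control rats and 3 from rats 48 h after RIPC. The authors deposited 1 table of raw counts, whole reads per mature miRNA, in which all 6 library columns were mapped by name to the labels. The submitters' processing notes name bcl2fastq, BWA and the build rn6. Trimming, mismatch settings, annotation release and the treatment of reads with several matches are not given in the sources used here.

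Counts were tested with edgeR 4.0.16 in R 4.3.3 (quasi-likelihood test, TMM factors, filterByExpr with a minimum count of 10 and a minimum total of 15, group as the sole term), which left 404 of 763 miRNAs. P-values were adjusted by Benjamini-Hochberg over all of them. A call needed a change of over 2-fold with p under 0.05, the limits the study gives, here applied to the p before adjustment. CPM values are counts divided by TMM-scaled library sizes, and log2 CPM for correlations used a prior count of 2. Ratios used counts plus a pseudocount of 0.5 and the exact permutation test. DESeq2 1.42.0, limma 3.58.1 and other scalings and filters were tried as alternatives. The scripts were tested on simulated data first, and figures were drawn with matplotlib 3.10.9.

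Named miRNAs were the 6 members, the opposite arms, the polycistron partners, any other rat miRNA with a member's seed and, per member, the 2 tested miRNAs outside the 6 members with the highest Pearson correlation. The members and lists were chosen with earlier results of these data known. The authors' experiments on injected exosomes and cultured cells were not analysed here.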

Additional observations from a re-analysis of the deposited data

How the results depend on the processing

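All members kept their direction under the 11 alternatives that used all libraries, with log2 fold changes of -1.91 to -1.52 for miR-351-5p and -0.87 to -0.59 for miR-99a-5p. With library size only, 33 miRNAs were called instead of 38, 15 lower and 18 higher instead of 30 and 8, and 1 member instead of 2, since miR-125b-5p missed the rule at -0.98. miR-125a-5p passed it with limma-voom (-1.02) and with normalization without the 10 most abundant miRNAs (-1.04). Without a filter, 63 of 598 miRNAs were called.

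Leaving out 1 library gave 15 to 182 called miRNAs and 1 to 2 called members. The highest count came without C-exo replicate 3, where 132 miRNAs had an adjusted p under 0.05 by edgeR's quasi-likelihood test. The counts were 15 without C-exo replicate 1, 18 without C-exo replicate 2, 16 without R-exo replicate 2 and 15 without R-exo replicate 3. Log2 fold changes ranged from -1.31 to -0.88 for miR-125b-5p, from -0.94 to -0.65 for miR-99a-5p and from -0.082 to 0.49 for miR-100-5p, which reversed without C-exo replicate 1. miR-99a-5p reached an unadjusted p of 0.0174 without C-exo replicate 3, below the fold limit. None of the 11 ratios changed sign.

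Libraries with the same replicate number did not deviate together (correlations of 0.329, -0.275 and 0.279), so the numbers were not taken as pairs. With a replicate block, miR-351-5p was at -1.52 and miR-125b-5p at -1.09, 2 members and 38 miRNAs were called, and 13 of the 38 were lower. Counting error was at most 2.65% for a member, below the spread between libraries of a group.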
